A study of Mus musculus with 19 samples.

Results

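The clustered protocadherins were followed through 3 comparisons of Pou3f1 in the mouse retina. They were taken by their gene symbols (Pcdha, Pcdhb or Pcdhg with an optional subtype letter and a number), which selected 58 of the 35734 genes listed in the series. The set holds 14 members of the alpha cluster, 22 of the beta cluster and 22 of the gamma cluster. At 48 h 57 of them were listed (all but Pcdhb1), 55 with an adjusted p. The 14 day table lists 58, each with an adjusted p, and at E17.5 there are 58, of which 55 have one.

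RNA-seq was made on 19 libraries in 6 groups. In the gain-of-function experiment a Pou3f1 plasmid, or a control Gfp plasmid, was electroporated in vivo into eyes of wild-type CD1 pups on postnatal day 1 at 3 ug/ul, and fluorescent cells were sorted and pooled to 150000 cells per replicate. At 48 h there were 3 Pou3f1 and 3 Gfp libraries, and at 14 days 5 Pou3f1 and 4 Gfp libraries (the protocol text gives postnatal day 14 for the late groups, the sample labels 14 days after electroporation). The loss-of-function experiment set 2 whole-retina libraries homozygous for the Pou3f1 knockout against 2 heterozygous ones, from C57B6J embryos of day E17.5, so its controls carried 1 knockout allele. The electroporated groups are mixtures of whatever cells took up the plasmid, and the E17.5 groups are mixtures of the cells present in the retina at that age.

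Clustered protocadherins are adhesion proteins of the neuronal surface whose extracellular parts bind the same isoforms on a neighbouring membrane. Each neuron uses a small, largely random choice of alpha, beta and gamma promoters, which is made through CTCF, cohesin and DNA methylation, and the resulting combination lets a neuron tell its own branches from those of other cells. In the retina the gamma cluster is best known for dendritic self-avoidance of starburst amacrine cells and for the survival of ganglion cells and interneurons. The C-type members (Pcdhac1, Pcdhac2, Pcdhgc3, Pcdhgc4 and Pcdhgc5) are regulated apart from the others and are not chosen at random.

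All members lie on the plus strand of chromosome 18 (mm10). The alpha cluster spans bases 36930184 to 37187661, the beta cluster 37264938 to 37524479 and the gamma cluster 37661793 to 37841873. In the GENCODE annotation the alpha and gamma members join a first exon of their own to shared last exons of their cluster. The longest transcript of Pcdhgc5 does so only in part, with 3 exons and 410 shared bases (7.10% of its length). Each beta member is a single exon. The longest transcripts of the 14 alpha members had 2860 bases in common, which is 48.6% to 54.9% of their length. Among the 22 gamma members the bases shared with another member were 2119 at the median and ranged between 410 and 3157. Of the beta members, only Pcdhb21 and Pcdhb22 overlapped, by 455 bases. The authors used Salmon, which splits reads of shared exons between transcripts by estimation, so values of single alpha and gamma members are uncertain to that extent and members of a cluster are not independent of each other. Symbol and position differed for 1 member: 2 records carry the symbol Pcdha11, and the one that RefSeq places as Pcdha10 is written Pcdha11 (Pcdha10).

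Every fold change, p-value and mean count of a gene below was read from the authors' deposited tables, 1 for each comparison. A log2 fold change is Pou3f1 cells over Gfp cells, or knockout over heterozygous retina, shrunken toward 0, and ± gives its standard error where the table lists one. Rose and fell are used of genes for which the authors' DESeq2 p, adjusted by Benjamini-Hochberg over the tested genes, was under 0.05. None of the tables holds values per library, so the spread within a group is known only through these errors, and whether groups overlapped could not be seen. Nothing in the labels says that the libraries of a group came from separate litters, so the p-values measure the spread between these libraries. Pou3f1 itself was higher in the Pou3f1 cells at 48 h (0.91 ± 0.26, adjusted p = 0.0233) and at 14 days (5.57 ± 0.27, adjusted p = 3.40e-88). It was lower in the knockout retinas (-0.69, adjusted p = 1.98e-08), and this fixes the direction in which the E17.5 table was read.

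The gamma cluster supplied most of the clustered protocadherin counts of the sorted cells. In the authors' deposited 48 h table the mean normalized counts of gamma members made up 67.8% of the sum over all members, those of beta members 28.1% and those of alpha members 4.10%. At 14 days the shares were 69.2% for gamma, 21.1% for beta and 9.62% for alpha. These means run over Pou3f1 and Gfp libraries together, the tables were normalized separately, and a sum gives more weight to long transcripts.

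Per kilobase of the longest transcript, Pcdhgc3, a C-type isoform known to promote dendrite branching, was the most abundant member. It stood at 577 mean normalized counts per kb at 48 h and at 1621 at 14 days, or 38.3% and 31.1% of the summed gamma count. The next at 14 days was Pcdhgc4, the isoform on which survival of many neurons depends, at 589 per kb, against 104 per kb at 48 h. Among the randomly chosen gamma members Pcdhgb6 was highest at both times (108 and 333 per kb), and the third C-type isoform, Pcdhgc5, was lowest (4.30 and 23.6 per kb). The C-type members therefore held both the highest and the lowest levels per kb of the gamma cluster. The longest transcript of Pcdhgc5 differs in form from those of the other gamma members. Without division by length, Pcdhgc5 at 14 days (136) was not below Pcdhgb8 (134).

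The beta members were more even. Their level per kb ranged between 11.6 and 98.8 mean normalized counts at 48 h over 21 members, with Pcdhb17 highest. At 14 days the range was 5.47 for Pcdhb1 to 183 for Pcdhb20, over 22 members, with Pcdhb17 at 181. The alpha cluster was lowest, with medians of 5.09 per kb at 48 h and 34.4 per kb at 14 days, against 35.6 and 137 in the gamma cluster. Pcdhac2, which serotonergic axons need to space themselves evenly, was its most abundant member (20.3 and 176 per kb) and held 28.0% and 30.5% of the summed alpha count. Pcdha1 at 48 h was the lowest value of any member, 0.429 per kb. Several alpha members were so low at 48 h that their fold changes carry little information.

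**Figure D1:**
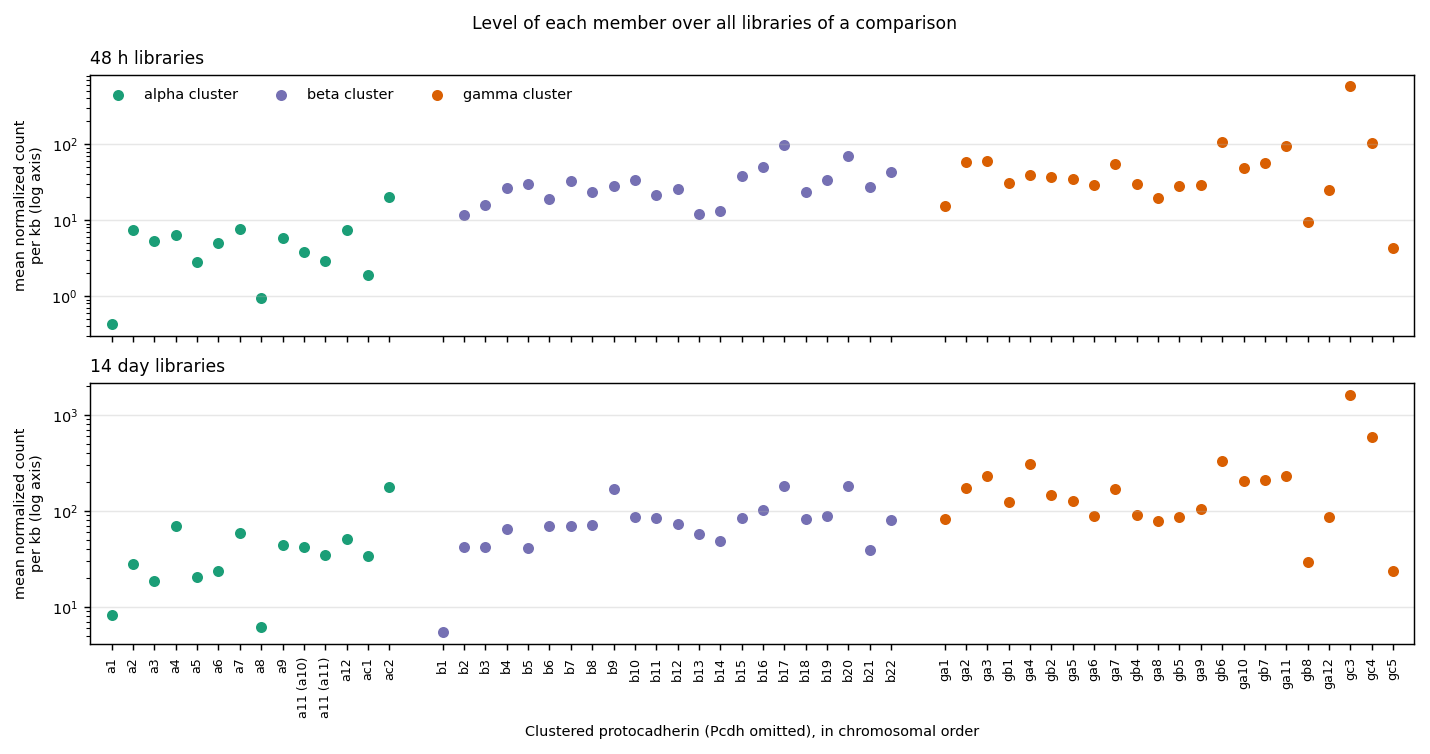
Mean normalized count per kb of the longest transcript (log axis) of each member at 48 h (upper panel) and 14 days (lower panel), averaged by the authors over Pou3f1 and Gfp libraries, in chromosomal order; the tables were normalized separately and show no SD. Pcdhgc3 stands above every other member at 577 and 1621 per kb, and most alpha members lie below the beta and gamma members.

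At 48 h after electroporation 1 of 55 tested members changed. In the authors' deposited 48 h table Pcdhgb7 fell in Pou3f1 cells (-0.72 ± 0.20, adjusted p = 0.0137), a ratio of 0.608 to Gfp cells at a mean normalized count of 269. Over all tested genes 1.56% were called lower and 1.48% higher, so a single call among the members is no more than the background. No member was called higher.

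The gamma members nevertheless lay mostly on one side at 48 h. Their log2 fold changes were negative for 21 of 22, with a median of -0.46, while 49.9% of all genes with a p-value were negative, with a median of 0.00. The 7 members of the B subtype had a median of -0.66 and the 12 of the A subtype a median of -0.42, and all 19 were negative. Beside Pcdhgb7 the lowest values were Pcdhgb1 (-0.72 ± 0.24, adjusted p = 0.0790), Pcdhgb4 (-0.67 ± 0.24, adjusted p = 0.0963) and Pcdhgb6 (-0.66 ± 0.22, adjusted p = 0.0863). Pcdhga11 was at -0.59 ± 0.19 (adjusted p = 0.0622). None of these passed the adjusted threshold on its own, and since reads of the shared exons enter every gamma member, the 22 signs are not 22 independent observations.

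The C-type gamma members did not share 1 direction at 48 h. Pcdhgc4 was the only gamma member with a positive value (0.50 ± 0.26, adjusted p = 0.359), while Pcdhgc3 was at -0.40 ± 0.17 (adjusted p = 0.232) and Pcdhgc5 at -0.03 ± 0.29 (adjusted p = 0.981). None of the 3 was called. At an unadjusted p under 0.05, 13 gamma members, 1 beta member and no alpha member were lower, and no member was higher. Over all genes with a p-value, 5.61% were lower and 4.22% higher at that limit.

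The alpha and beta clusters showed smaller values at 48 h. The alpha median was -0.26 with 11 of 14 members negative, between Pcdha8 (0.25 ± 0.19, without an adjusted p) and Pcdha12 (-0.58 ± 0.30, adjusted p = 0.349). The C-type alpha members were at -0.23 ± 0.22 (Pcdhac1, adjusted p = 0.709) and -0.46 ± 0.28 (Pcdhac2, adjusted p = 0.474). The beta median was -0.08 with 13 of 21 members negative, between Pcdhb15 (0.32 ± 0.25, adjusted p = 0.600) and Pcdhb18 (-0.46 ± 0.23, adjusted p = 0.334). The median error was 0.29 for alpha, 0.25 for beta and 0.24 for gamma members. These are errors of shrunken values and can be small where counts are very low. Pcdha1, for example, had an error of 0.15 at a mean normalized count of 2.25. A small error at a low count is therefore no sign of precision. Of the cell type markers at 48 h, Eomes (1.34 ± 0.24) and Ebf3 (1.13 ± 0.24) of 15 ganglion cell markers rose. The ganglion cell list was mixed, with 9 of 15 values negative and a median of -0.13. The cone gene Thrb (-0.86 ± 0.25) and Kdr of the vessel list (-0.63 ± 0.15) fell. Kdr had a mean normalized count of 11683, against a median of 18.1 over the 11 listed vessel markers. Of these 11 vessel values 9 were negative, with a median of -0.30. Whether the fall of Kdr reflects vessel cells was not tested. All 4 listed rod markers (median -0.51), 6 bipolar markers (median -0.29) and 9 Müller glia markers (median -0.32) were negative without a call, and so were 9 of 10 amacrine markers (median -0.30). The part of this in the negative gamma values was not tested.

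At 14 days the calls were again confined to the gamma cluster, mostly in the other direction. In the authors' deposited values for 14 days, of 58 tested members 6 rose in Pou3f1 cells and 1 fell. No alpha or beta member was called. Over all tested genes 11.5% were called higher and 9.21% lower. The 6 risen members are 10.3% of all members, which is near the background, and 27.3% of the gamma cluster.

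Pcdhgc4 rose most (0.67 ± 0.19, adjusted p = 0.00386), a ratio of 1.59 to Gfp cells at a mean normalized count of 2957. Pcdhgc3, the most abundant member, rose less but with a smaller error (0.27 ± 0.087, adjusted p = 0.0134), a ratio of 1.21. The third C-type isoform, Pcdhgc5, was at 0.48 ± 0.25 (adjusted p = 0.158). All 3 C-type gamma members thus had positive values, and 2 of them passed.

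Of the A subtype, 3 neighbouring members rose by like amounts. These were Pcdhga6 (0.43 ± 0.16, adjusted p = 0.0336), Pcdhga7 (0.44 ± 0.15, adjusted p = 0.0191) and Pcdhga8 (0.41 ± 0.13, adjusted p = 0.0160). Pcdhgb4 lies between the last pair on the chromosome and was at 0.16 ± 0.17 (adjusted p = 0.538). Of the B subtype Pcdhgb6 rose (0.27 ± 0.096, adjusted p = 0.0285). The only member that fell was Pcdhgb8 (-0.38 ± 0.13, adjusted p = 0.0256), which the annotation classes as a polymorphic pseudogene and which was low, at 29.1 mean normalized counts per kb. The 7 calls were thus 3 of the A, 2 of the B and 2 of the C-type members.

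The gamma median at 14 days was 0.18, with 16 of 22 members positive, against a median of -0.01 over all genes. The alpha cluster had nearly the same median, 0.16, and 12 of 14 members positive, without a call. Its values lay between Pcdha6 (0.37 ± 0.21, adjusted p = 0.226) and Pcdha4 (-0.26 ± 0.20, adjusted p = 0.370), with Pcdhac1 at 0.10 ± 0.17 (adjusted p = 0.724) and Pcdhac2 at -0.07 ± 0.14 (adjusted p = 0.776). The beta median was 0.07 with 13 of 22 members positive, between Pcdhb15 (0.36 ± 0.16, adjusted p = 0.107) and Pcdhb1 (-0.45 ± 0.28, adjusted p = 0.266). Errors were smaller than at 48 h, with cluster medians of 0.19 for alpha, 0.17 for beta and 0.13 for gamma members.

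**Figure D2:**
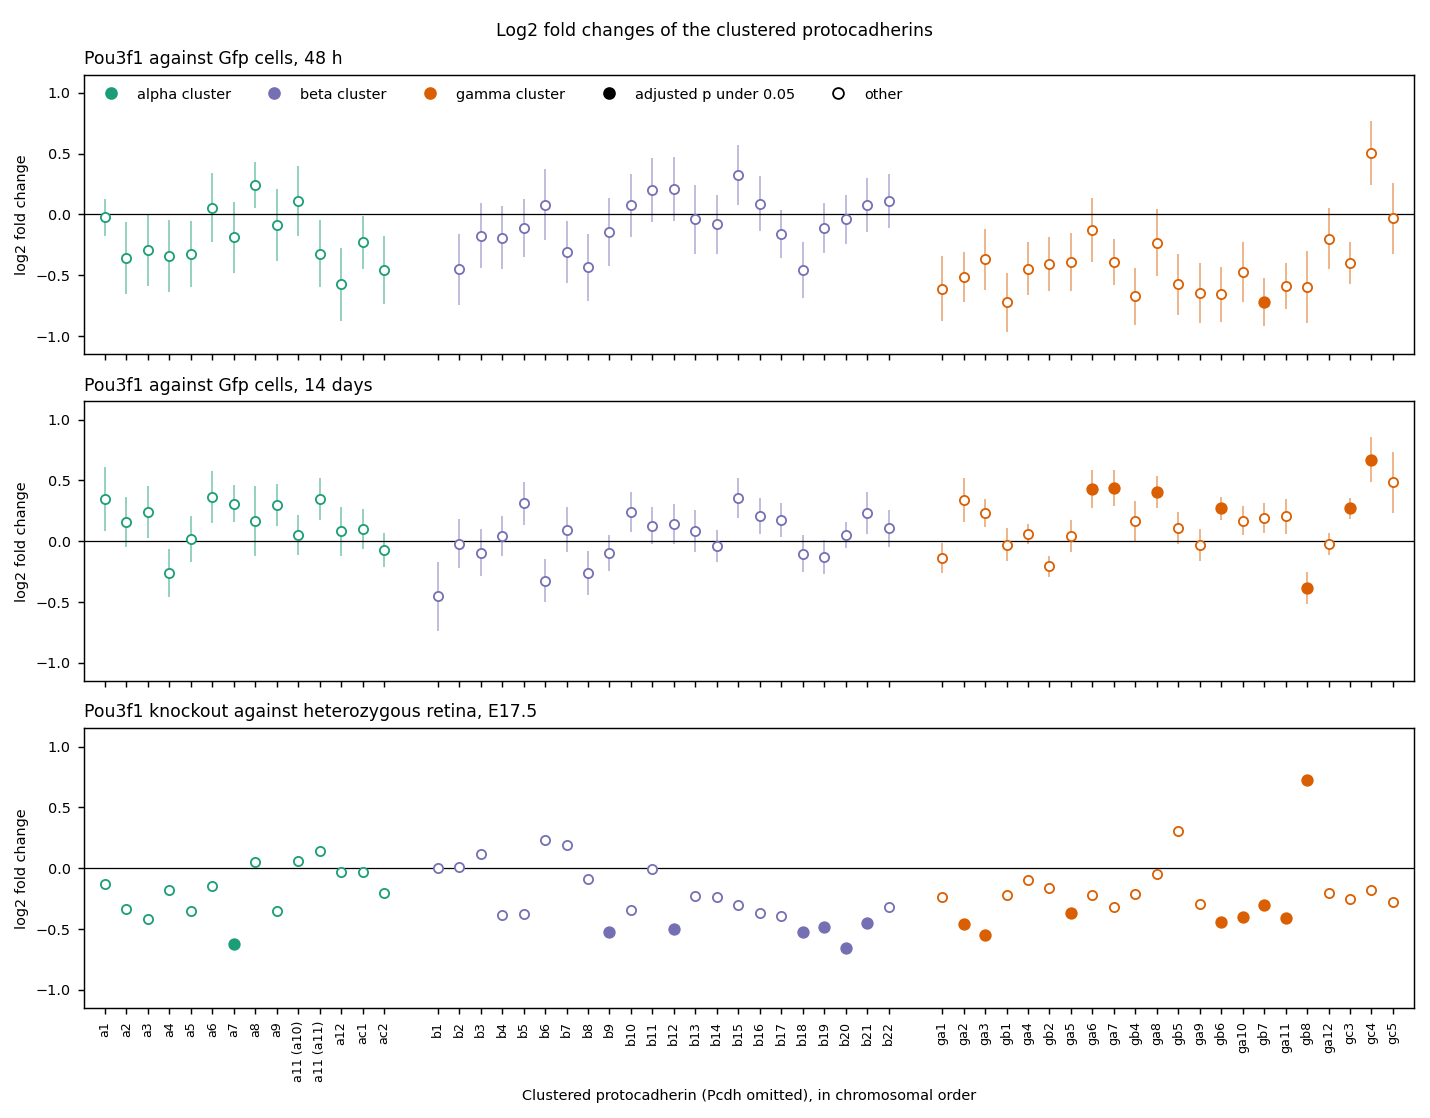
Log2 fold change of each member in chromosomal order, in the authors' deposited tables; the panels are Pou3f1 over Gfp cells at 48 h, Pou3f1 over Gfp cells at 14 days, and knockout over heterozygous retina at E17.5. Bars give the standard error (not listed for E17.5), colours the cluster, and filled points an adjusted p under 0.05; there are 1, 7 and 15 filled points from the upper to the lower panel, and only at E17.5 do they include alpha and beta members.

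The libraries at 14 days also differed in the markers of several cell types. All 12 microglial markers rose in Pou3f1 cells (median 1.67), among them Ctss (2.22 ± 0.20), C1qc (1.87 ± 0.24) and C1qa (1.80 ± 0.25). Of 12 rod markers 10 fell (median -0.45), and 7 of 10 cone markers and 6 of 11 Müller glia markers fell too. Of 10 tested vessel markers 3 fell, and all 10 values were negative. Of 12 bipolar markers 2 rose and 1 fell, and 2 of 8 starburst amacrine markers rose. Of 9 tested amacrine markers 3 rose (Gad2 at 1.21 ± 0.23). Of 15 ganglion cell markers 5 rose (Pou4f2 at 3.64 ± 0.26) while 1 fell (Nefh at -0.36 ± 0.13). The ganglion cell list was mixed, with 8 of 15 values negative and a median of -0.05. In such bulk samples fewer cells of a type and less RNA per cell cannot be told apart. The part of these shifts in the protocadherin values was not tested. Levels of the markers in each group are not given by the tables.

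The effect of Pou3f1 on 6 gamma members differed between the time points. The difference of the log2 fold changes (14 days minus 48 h) was tested for 20828 genes by a two-sided z test on the authors' deposited values and errors, with Benjamini-Hochberg adjustment. It was called for 6 gamma members and for no alpha or beta member, and all 6 were higher at 14 days. Over all genes 3.31% were called higher and 1.14% lower in this test.

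The largest called differences were in Pcdhgb6 and Pcdhgb7. Pcdhgb6 was at 0.27 at 14 days and -0.66 at 48 h, a difference of 0.93 (95% interval 0.45 to 1.41, adjusted p = 0.00730). Pcdhgb7 was at 0.19 at 14 days and -0.72 at 48 h, a difference of 0.91 (0.46 to 1.36, adjusted p = 0.00443). Both are B subtype members that lie close to each other, with Pcdhga10 between them.

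Pcdhga2 was at 0.34 at 14 days and -0.51 at 48 h (difference 0.85, adjusted p = 0.0423). Pcdhga7 was at 0.44 at 14 days and -0.39 at 48 h (difference 0.83, adjusted p = 0.0166), and Pcdhga11 at 0.20 at 14 days and -0.59 at 48 h (difference 0.79, adjusted p = 0.0272). Pcdhgc3 was at 0.27 at 14 days and -0.40 at 48 h, a difference of 0.67 (0.29 to 1.05, adjusted p = 0.0194). Each of the 6 had a positive value at 14 days and a negative one at 48 h.

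Pcdhgc4 was positive at both times, and its difference of 0.17 had an interval of -0.46 to 0.80 (adjusted p = 0.921). Its call at 14 days and lack of one at 48 h are therefore not shown to differ. Pcdhgb8 was negative at both times (difference 0.21 ± 0.32, adjusted p = 0.886). The difference was positive for all 22 gamma members (median 0.63), for 12 of 14 alpha members (median 0.38) and for 16 of 21 beta members (median 0.12). Among all genes 49.2% of differences were positive, with a median of 0.00. The alpha differences had a median error of 0.34, against 0.28 in the gamma cluster, and the highest alpha difference, 0.67 ± 0.33 for Pcdha11 (Pcdha11), had an adjusted p of 0.289.

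**Figure D3:**
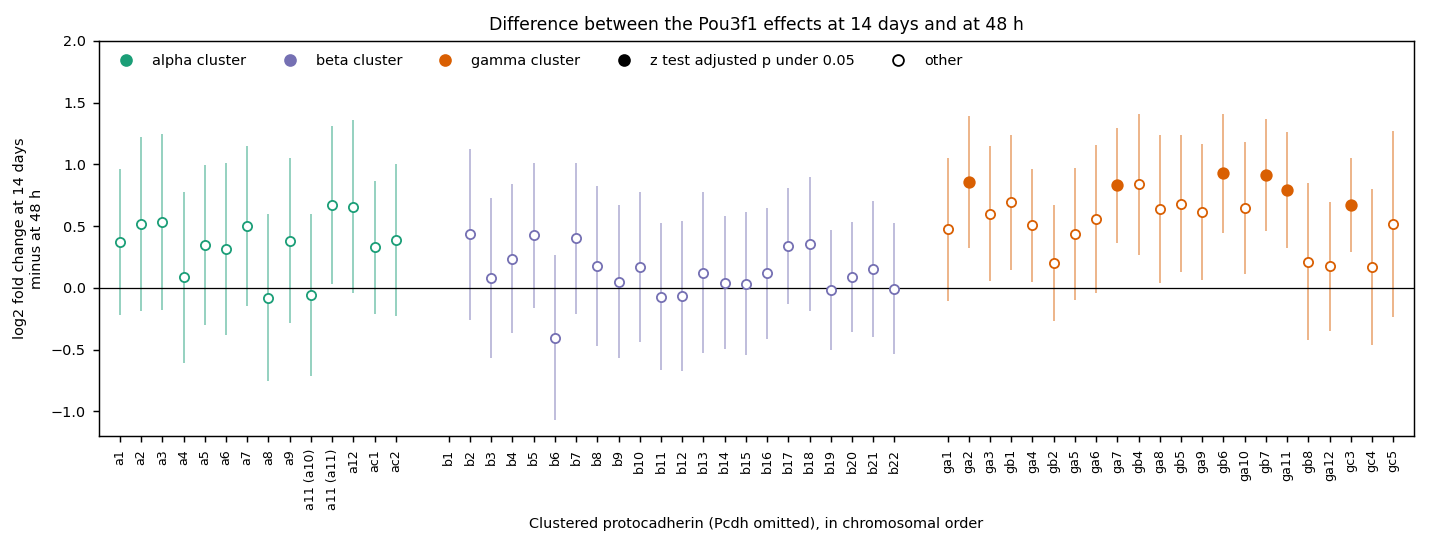
Difference between the log2 fold changes (Pou3f1 over Gfp cells) at 14 days and at 48 h for each member listed at both times, with 95% intervals from the standard errors of both; filled points passed the z test after adjustment over 20828 genes. All 22 gamma differences are above 0, and the 6 filled points are gamma members between 0.67 and 0.93.

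In the E17.5 knockout retinas, in which Pou3f1 RNA was lower but not absent, more members were called than in the other comparisons, and in all 3 clusters. In the authors' deposited E17.5 values, of 55 tested members 14 (25.5%) fell in knockout retinas and 1 rose. Over all tested genes 5.34% were called lower and 4.7% higher. The fallen members were 7 of 22 in the gamma cluster, 6 of 21 tested in the beta cluster and 1 of 12 tested in the alpha cluster. This comparison shares no library with those of the electroporated cells.

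In the gamma cluster 5 A members fell. Pcdhga3 had the lowest value (-0.54, adjusted p = 0.000105), a ratio of 0.685 of knockout to heterozygous retina, followed by Pcdhga2 (-0.46, adjusted p = 0.000418). Pcdhga11 (-0.41, adjusted p = 0.000798), Pcdhga10 (-0.40, adjusted p = 0.0284) and Pcdhga5 (-0.37, adjusted p = 0.00866) fell too. Of the B members Pcdhgb6 fell (-0.44, adjusted p = 0.00533), and so did Pcdhgb7 (-0.31, adjusted p = 0.0358). All 12 A members were negative, with a median of -0.31.

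Pcdhgb8 rose in the knockout retinas (0.73, adjusted p = 1.95e-06), a ratio of 1.66, and had the smallest adjusted p of any member. Beside it only Pcdhgb5 was positive in the gamma cluster (0.30, adjusted p = 0.0833). The C-type members were at -0.25 for Pcdhgc3 (adjusted p = 0.0693), -0.18 for Pcdhgc4 (adjusted p = 0.630) and -0.28 for Pcdhgc5 (adjusted p = 0.380), and none was called.

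The beta members that fell were Pcdhb20 (-0.65, adjusted p = 0.000230), Pcdhb9 (-0.52, adjusted p = 0.0276), Pcdhb18 (-0.52, adjusted p = 0.0120), Pcdhb12 (-0.50, adjusted p = 0.0414), Pcdhb19 (-0.48, adjusted p = 0.0268) and Pcdhb21 (-0.45, adjusted p = 0.0395). Pcdhb18 to Pcdhb21 are 4 neighbours near the gamma side of the cluster. The members on either side of them were also negative and just missed the threshold. These were Pcdhb17 (-0.39, adjusted p = 0.0607) and Pcdhb22 (-0.32, adjusted p = 0.0603). The highest beta value was 0.23 for Pcdhb6 (adjusted p = 0.467). The beta median of -0.33 was the lowest of the 3 clusters, and 18 of 22 members were negative.

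Pcdha7 was the alpha member that fell (-0.62, adjusted p = 0.00125), a ratio of 0.649. The other alpha values lay between -0.42 for Pcdha3 (adjusted p = 0.0922) and 0.14 for Pcdha11 (Pcdha11) (adjusted p = 0.681). The alpha median was -0.16, and the C-type members were at -0.03 (Pcdhac1, adjusted p = 0.948) and -0.21 (Pcdhac2, adjusted p = 0.425). With 2 libraries a group and no errors in this table, the precision of single values cannot be given.

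**Figure D4:**
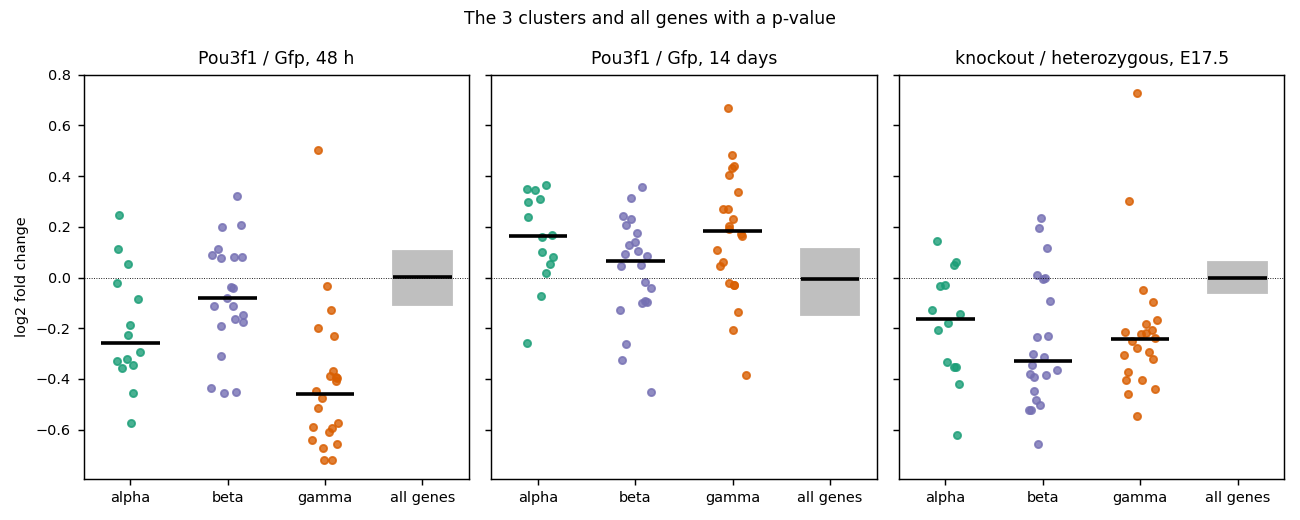
Log2 fold changes of the alpha, beta and gamma members (1 point per member, sideways scatter only for legibility) with their medians (black lines), beside the interquartile range (grey) and median of all genes with a p-value, in the 3 comparisons. The gamma medians are -0.46, 0.18 and -0.24 from left to right, and the beta median is lowest at E17.5 (-0.33).

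The knockout retinas also differed in cell type markers. All 9 tested amacrine markers fell, with a median of -0.90 over the 10 with a p-value, among them Gad1 (-1.36), which makes the transmitter GABA, and Tfap2a (-1.18) and Tfap2b (-1.01), transcription factors of amacrine cells. Of the starburst amacrine markers Fezf1 (-1.48), Megf10 (-0.90) and Megf11 (-0.68) fell, of 6 tested. Of the 8 with a p-value 4 were negative and 4 positive, with a median of -0.01, so this list was mixed. Ganglion cell markers were mixed, with Pou4f2 up (0.35), Eomes and Pou4f3 down (-0.58 and -0.59), and a median of 0.01. Other lists shifted too. Of the tested markers, 2 of 6 horizontal, 3 of 12 vessel and 1 of 5 rod markers fell. Of 10 tested Müller glia markers 3 fell and 1 rose, and of 8 tested bipolar markers 2 fell and 1 rose. All 12 microglial and all 9 cone values were negative without a call. The part of these shifts in the lower protocadherin values was not tested.

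Of the 58 members 20 were called in any comparison and 38 in none. Pcdhgb7 fell at 48 h (-0.72) and in the knockout (-0.31). Called both at 14 days and at E17.5 were Pcdhgb6 and Pcdhgb8. They are 28.6% of the 7 calls at 14 days and 13.3% of the 15 at E17.5. Over all genes tested in both, the same shares were 11.7% at 14 days and 26.8% at E17.5. Pcdhgb6 and Pcdhgb8 are 3.64% of the 55 members tested in both, beside 2.65% of the 14555 genes tested in both. Pcdhgb6 rose with added Pou3f1 at 14 days (0.27) and fell in the knockout (-0.44), while Pcdhgb8 fell with added Pou3f1 (-0.38) and rose in the knockout (0.73). Both thus had opposite directions at 14 days and in the knockout, and in opposite senses to each other. At 48 h of added Pou3f1 both values were negative without a call, -0.66 for Pcdhgb6 and -0.59 for Pcdhgb8. For Pcdhgb6 that is the same sign as in the knockout.

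By sign alone, 27 of the 57 members listed in all 3 comparisons were negative at 48 h, positive at 14 days and negative at E17.5. They were 14 of 22 in the gamma cluster, 8 of 14 in the alpha cluster and 5 of 21 in the beta cluster. The share was 47.4% of the members and 13.1% of the 20500 genes listed in all 3 comparisons, and members that share exons are not independent of each other. Across the gamma members the values at 48 h and 14 days had a Spearman correlation of 0.53 (22 members), and 15 of them were negative at 48 h and positive at 14 days. The same correlation was 0.50 across the 14 alpha members and 0.54 across the 21 beta members. Across all 57 members the correlation was 0.28 between 48 h and 14 days, -0.02 between 48 h and E17.5 and -0.20 between 14 days and E17.5. These are descriptions over members that share exons and libraries.

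Genes around and outside the clusters were set beside the members. Taf7, a general transcription factor gene between the beta and gamma clusters, was at -0.03 at 48 h, -0.09 at 14 days and 0.07 in the knockout, and was not called. Of the 20 nearest protein-coding genes, 10 on each side, none of 17 tested was called at 48 h and none of 18 at E17.5. At 14 days 3 of 19 tested were called, namely Fchsd1 (0.56 ± 0.19), Arap3 (-0.76 ± 0.29) and Pcdh12 (-0.85 ± 0.30). Of all tested genes 20.7% were called at 14 days. The medians over these neighbours were 0.09 at 48 h, 0.01 at 14 days and 0.01 in the knockout.

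The non-clustered protocadherins are single genes with promoters of their own, of which Pcdh1 and Pcdh12 lie beside the gamma cluster. At 48 h Pcdh20 (1.56 ± 0.29) and Pcdh7 (1.05 ± 0.22) rose and Pcdh15 (-0.72 ± 0.22) fell, of 11 tested. At 14 days 6 of 12 rose, among them Pcdh10 (1.86 ± 0.21), Pcdh17 (0.87 ± 0.16) and Pcdh8 (0.76 ± 0.15), and 2 fell, Pcdh15 (-0.69 ± 0.15) and Pcdh12. In the knockout none rose and 5 of 12 fell, among them Pcdh8 (-0.77), Pcdh9 (-0.51) and Pcdh11x (-0.56). Their medians were 0.36 at 48 h, 0.49 at 14 days and -0.26 in the knockout, so this list had a positive median at 48 h where that of the gamma cluster was negative. Whether the lists differ was not tested.

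Of 20 factors with a known role in the choice of clustered protocadherin promoters, none was called at 48 h or at E17.5. At 14 days Wiz, a zinc finger protein found with CTCF and cohesin at DNA loops, rose (0.30 ± 0.089, adjusted p = 0.00796), and the cohesin subunit gene Stag2 fell (-0.33 ± 0.11, adjusted p = 0.0173). These 2 calls are 10% of the 20 factors, below the 20.7% of all tested genes called at 14 days. The medians of the list were -0.08 at 48 h, -0.03 at 14 days and -0.01 in the knockout. Of the intracellular and membrane partners none of 27 was called at 48 h. At 14 days 8 of 29 rose, with Marcks (1.04 ± 0.16), Ctnnb1 (0.35 ± 0.070), Nlgn2 (0.34 ± 0.091) and Wasf1 (0.46 ± 0.13) leading by adjusted p, and Pdcd10 fell (-0.29 ± 0.10). Together these calls are 31.0% of the partners, beside 20.7% of all tested genes. Marcks encodes an actin-binding protein of the membrane, and Nlgn2 a synaptic adhesion protein of inhibitory synapses. In the knockout Nlgn2 fell (-0.42, adjusted p = 8.09e-05) and Snx5, a sorting nexin, rose (0.40, adjusted p = 0.000533), of 28 tested.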

How the data were processed

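The 3 deposited files are comparison tables, 1 each, listing genes without library values. Per the submitters' processing notes the tools were Salmon, DESeq2 and MACS2 with mm10. Versions and the design formula were not given in the sources used here. For all 3 comparisons log2 fold changes (with SE at 48 h and 14 days), p-values and adjusted p-values were deposited by the authors. The Wald score in the authors' tables is the fold change over its SE, with a largest gap of 4.45e-07, and the adjusted p was recomputed to within 5.60e-06. The signal in the deposited tables at 48 h and 14 days is the mean normalized count over the libraries of a comparison. These means summed to 16020800 at 48 h and 38507500 at 14 days, and the depth of single libraries is unknown. Median SEs of tested genes were 0.199 and 0.150.

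Fold changes at E17.5 were taken as knockout over heterozygote so that Pou3f1 is the lower in the knockout. The file's name has the order turned round and gives another embryonic day than the labels. Computed here were counts of calls, medians, mean counts per kb of the longest transcript (GENCODE mouse release 21), and the z test between time points, which takes the shrunken fold changes. How unequal shrinkage of the 2 tables bears on it was not tested. Members with full values were those called, C-type members, the most abundant and those with the highest and lowest values per cluster; up to 4 called genes by adjusted p were taken from a list in a comparison. Nefh, Pdcd10, Pcdh15 and Pcdh12 at 14 days were named after their values were seen. The members and the 13 gene lists were chosen with earlier results of these data known. Alternatives were stricter thresholds, other adjustments and mean count limits. Versions were scipy 1.17.1, numpy 2.4.6 and pandas 2.3.3 under Python 3.11.15, with matplotlib 3.10.9 for plots.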

Additional observations from a re-analysis of the deposited data

Results flagged for a closer look

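The effect of Pou3f1 differed between 14 days and 48 h in 6 gamma members, by the z test of the difference itself on the authors' deposited values. The difference in log2 fold change, 14 days minus 48 h, was 0.9261 for Pcdhgb6, 0.9121 for Pcdhgb7, 0.8531 for Pcdhga2, 0.831 for Pcdhga7, 0.7921 for Pcdhga11 and 0.6685 for Pcdhgc3. Reads of the exons that these members share enter all 6 values, so they are not 6 independent observations. Cell type markers also differed between Pou3f1 and Gfp cells at 14 days, and their part in the differences was not tested.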

How the results depend on the processing

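At an adjusted p under 0.01 the members called numbered 0 in place of 1 at 48 h, 1 in place of 7 at 14 days (Pcdhgc4), 8 in place of 15 at E17.5, and 2 in place of 6 for the difference between time points (Pcdhgb6 and Pcdhgb7). With a 2-fold limit added, the count was 0 at 48 h, 0 at 14 days and also 0 in the knockout comparison. Adjustment over every gene with a p-value gave 1, 7 and 12 calls, and limits on the mean count of 10 and 50 gave 1 at 48 h and 7 at 14 days. The difference between time points was called for the same 6 members with adjustment over genes tested in both tables and after the table medians, which differ by -0.0087, were subtracted. The alternatives change thresholds and genes tested, not the deposited fold changes, so they could not turn the direction of a member. Leaving out a library was not run for want of values per library. No paired analysis was possible because the tables hold no values per library. Pcdha1 and Pcdha8 had the lowest levels at 48 h and no adjusted p there.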
